A study of Homo sapiens with 8 samples.

Results

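The genes that encode the alpha subunits of heterotrimeric G proteins were examined in CFPAC-1 cells, an established human pancreatic ductal adenocarcinoma line. The set held 10 genes of the 58870 in the deposited table, taken by symbol: GNAI1, GNAI2, GNAI3, GNAO1 and GNAZ of the Gi/o subfamily, GNAS of the Gs subfamily, GNAQ and GNA11 of the Gq/11 subfamily, and GNA12 and GNA13 of the G12/13 subfamily. The genes were taken by name, with no threshold on a measured value. RNA was sequenced from 4 libraries of cells with an empty vector and 4 of cells with an ADRA2A transgene, all grown in IMDM with serum and antibiotics for 72 hours with no other treatment. Whether a group was 1 clone or a pool, and which promoter drove the transgene, was not given in the sources used here. The labels did not say that the 4 samples of a group were separate cultures, so p-values measure the spread between these samples only, which may be technical.

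An alpha subunit holds GDP and a beta-gamma dimer at rest. An activated receptor makes it exchange GDP for GTP and let go of the dimer, and alpha subunit and dimer then act on effectors until the alpha subunit hydrolyses its GTP. Gs activates adenylyl cyclase, Gi inhibits it, Gq and G11 activate phospholipase C beta, and G12 and G13 act on effectors of their own. ADRA2A encodes the alpha-2A adrenergic receptor, which couples mainly to Gi/o proteins, so the Gi/o genes encode its main partners.

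The far end of the coding sequence carries the part of the alpha subunit that enters the activated receptor, and it is shown because it separates the subfamilies. Each line gives the last 33 coding bases before the stop codon of the canonical transcript in GENCODE release 44 on GRCh38, 5′ to 3′ on the gene's own strand. The capitals mark the codon that is the fourth from the end. Pertussis toxin, the classical blocker of Gi/o signalling, modifies a cysteine at this place.
GNAI1: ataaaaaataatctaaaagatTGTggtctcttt
GNAI2: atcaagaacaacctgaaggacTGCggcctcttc
GNAI3: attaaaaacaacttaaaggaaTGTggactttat
GNAO1: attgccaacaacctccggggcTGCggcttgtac
GNAZ: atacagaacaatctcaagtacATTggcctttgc
GNAS: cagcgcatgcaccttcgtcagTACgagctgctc
GNAQ: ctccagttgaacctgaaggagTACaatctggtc
GNA11: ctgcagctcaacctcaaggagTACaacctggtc
GNA12: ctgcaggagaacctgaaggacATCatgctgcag
GNA13: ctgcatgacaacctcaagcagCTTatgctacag

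A cysteine codon, TGT or TGC, stood at the marked place in GNAI1, GNAI2, GNAI3 and GNAO1 and in none of the other 6 sequences. GNAZ, whose product is the Gi/o member that resists the toxin, had ATT there. Over the whole coding sequence the closest pair was GNAI1 and GNAI3, with 80.8% of aligned bases identical, followed by GNAQ and GNA11 with 78.5%. GNA12 and GNA13 shared 67.3%. Even so, reads of these relatives were separable: no window of 50 bases of the canonical GNAI1, GNAI2, GNAS, GNA12 or GNA13 transcript occurred on the same strand in a transcript of any other gene. The exceptions were GNAI3, with 7.03% of its windows shared with 170 other genes, GNAQ, with 4.17% shared with its pseudogene GNAQP1, and GNA11, with 0.845% shared with 1 other gene. GNAQP1 took 1.01 estimated counts in a single library, ADRA2A replicate 3, where GNAQ had 948.99. On the opposite strand GNA11 shared 9.95% of its windows with 2 other genes. GNAZ shared 7.27% there, GNAI3 1.59% and GNAI1 0.0598%. The use of strand was not given, so such reads could not be told apart. The 2 genes opposite GNA11 held 10 and 2 counts over the 8 libraries, against 6975 for GNA11.

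Library totals lay between 14427035 and 17528915 counts. ADRA2A had 0 counts in all 4 empty-vector libraries and between 112 and 172 in the ADRA2A libraries. The 6 epithelial markers EPCAM, KRT7, KRT8, KRT18, KRT19 and CDH1 summed to between 11409 and 12512 CPM (the count scaled by the library's TMM-adjusted size) over the libraries. The summed markers of leukocytes, endothelium, fibroblasts and neuroendocrine cells each stayed at or under 2.85 CPM, and CD3E, CHGA, INS and GCG had 0 counts throughout. Within those traces the groups did not overlap in the endothelial sum (0.820 to 1.49 CPM with the empty vector, 2.15 to 2.85 CPM with ADRA2A), the fibroblast sum (1.83 to 2.21 CPM with the empty vector and less in every ADRA2A library) and the neuroendocrine sum (1.11 to 1.34 and 1.52 to 2.70 CPM). The markers of a type did not all go the same way. Mean PECAM1 was 0.773 CPM with the empty vector and 2.44 CPM with ADRA2A, while VWF (0.235 and 0.0323 CPM) and CDH5 were lower with ADRA2A. Of the fibroblast markers, DCN was higher with ADRA2A (0.0293 and 0.170 CPM) and COL1A2, PDGFRB and LUM were lower. The neuroendocrine sum was that of SYP alone. The part of these traces in the results was not tested. In bulk RNA, fewer cells with a transcript and less transcript per cell cannot be told apart.

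In CFPAC-1 cells 8 of the 10 alpha subunit genes passed the filter on low counts. To compare genes with each other, CPM was divided by the length in kilobases of the canonical transcript. GNAS, which encodes Gs alpha, stood highest at 518 ± 27.8 CPM per kb (SD over the 8 libraries), above 99.3% of tested genes. GNAI2 followed at 70.1 ± 1.68, and after it came GNAI3 at 19.3 ± 0.610, GNA13 at 16.2 ± 0.607, GNA11 at 13.1 ± 0.564, GNA12 at 10.9 ± 0.920, GNAQ at 8.04 ± 0.626 and GNAI1 at 6.09 ± 0.410 CPM per kb. Each of these 8 genes stood above the next in all 8 libraries, although the ranges of GNA11 and GNA12 over the libraries overlapped.

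**Figure D1:**
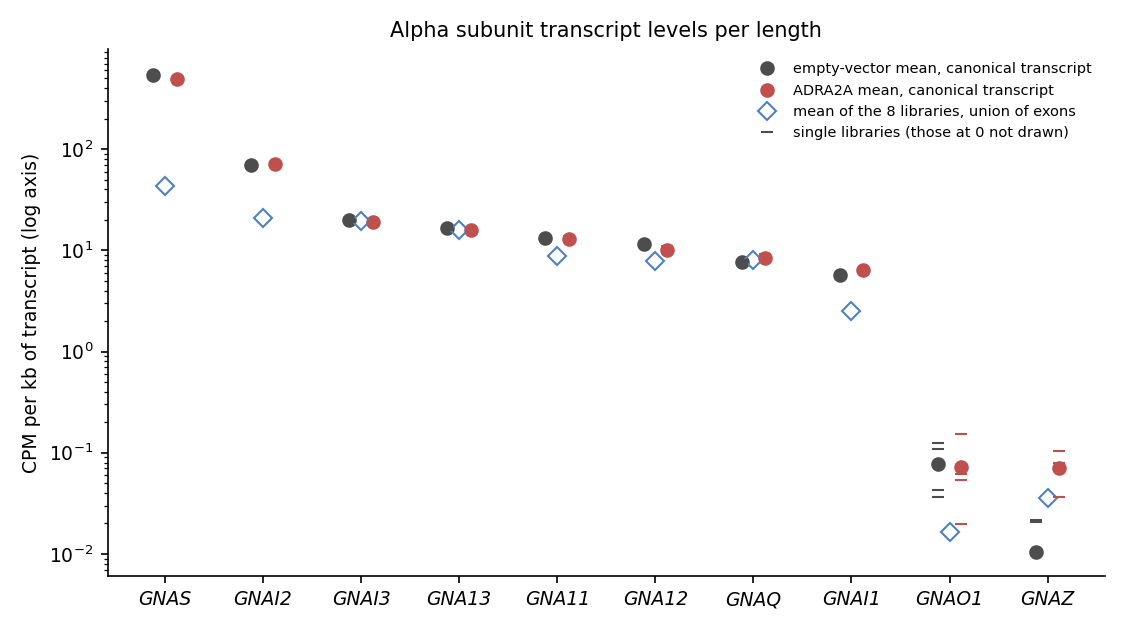
Level of each alpha subunit gene in CPM per kb of transcript on a log axis, with the 4 libraries of each group as dashes, group means as filled circles (canonical transcript) and the mean of the 8 libraries over the union of exons as open diamonds. GNAS lies highest under both lengths, and GNAO1 and GNAZ lie far below the other 8 genes.

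The order rests in part on the transcript length assumed. GNAS has many overlapping transcripts, among them those of extra-large Gs alpha and NESP55, and the table gives 1 value for the whole gene. Divided by the union of all its annotated exons (22221 bases against 1854 in the canonical transcript), GNAS came to 43.2 CPM per kb, GNAI2 to 21.0 and GNAI3 to 19.3. GNAS and GNAI2 remained first and second, and GNAI1 the lowest of the 8.

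GNAO1 and GNAZ were at the edge of detection. GNAO1 (ENSG00000087258.15; chromosome 16, 56191390 to 56357444 on GRCh38, plus strand), the Go alpha gene of neurons and endocrine cells, held 2, 2, 6 and 6 counts in empty-vector replicates 1 to 4 and 7, 3, 3 and 1 in the ADRA2A replicates. GNAZ (ENSG00000128266.9; chromosome 22, 23070519 to 23125032, plus strand), the Gz alpha gene, held 0, 1, 0 and 1 counts in the empty-vector libraries and 3, 5, 2 and 4 in the ADRA2A libraries. The GNAO1 counts overlapped between the groups and the GNAZ counts did not, but neither gene passed the filter on low counts, so neither was tested. With no filter GNAZ had an edgeR adjusted p of 0.0779, and 7.27% of its windows of 50 bases lie antisense to RSPH14, whose reads could not be told apart without knowledge of strand. The Gi/o transcripts of these cells were almost wholly those of GNAI1, GNAI2 and GNAI3.

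The comparison of the groups asked whether cells with the receptor transgene carried different amounts of its signalling partners. Of the 8 genes tested, 4 had an adjusted p under 0.05 (edgeR, quasi-likelihood, adjusted over 14785 genes): GNAI1 and GNAQ were higher in the ADRA2A cells, and GNAS and GNA12 lower. Of all genes tested 42.7% passed, 21.6% higher and 21.1% lower, so 4 of 8 is near the background. The fold changes were small. The 8 log2 fold changes lay between -0.19 and 0.17 with a median of -0.03, against 0.00 for all genes, and 7 of the 8 were smaller in size than the median of all tested genes, 0.18. None of the 8 reached a log2 fold change of 1 in size, which 4.66% of all genes did with an adjusted p under 0.05.

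**Figure D2:**
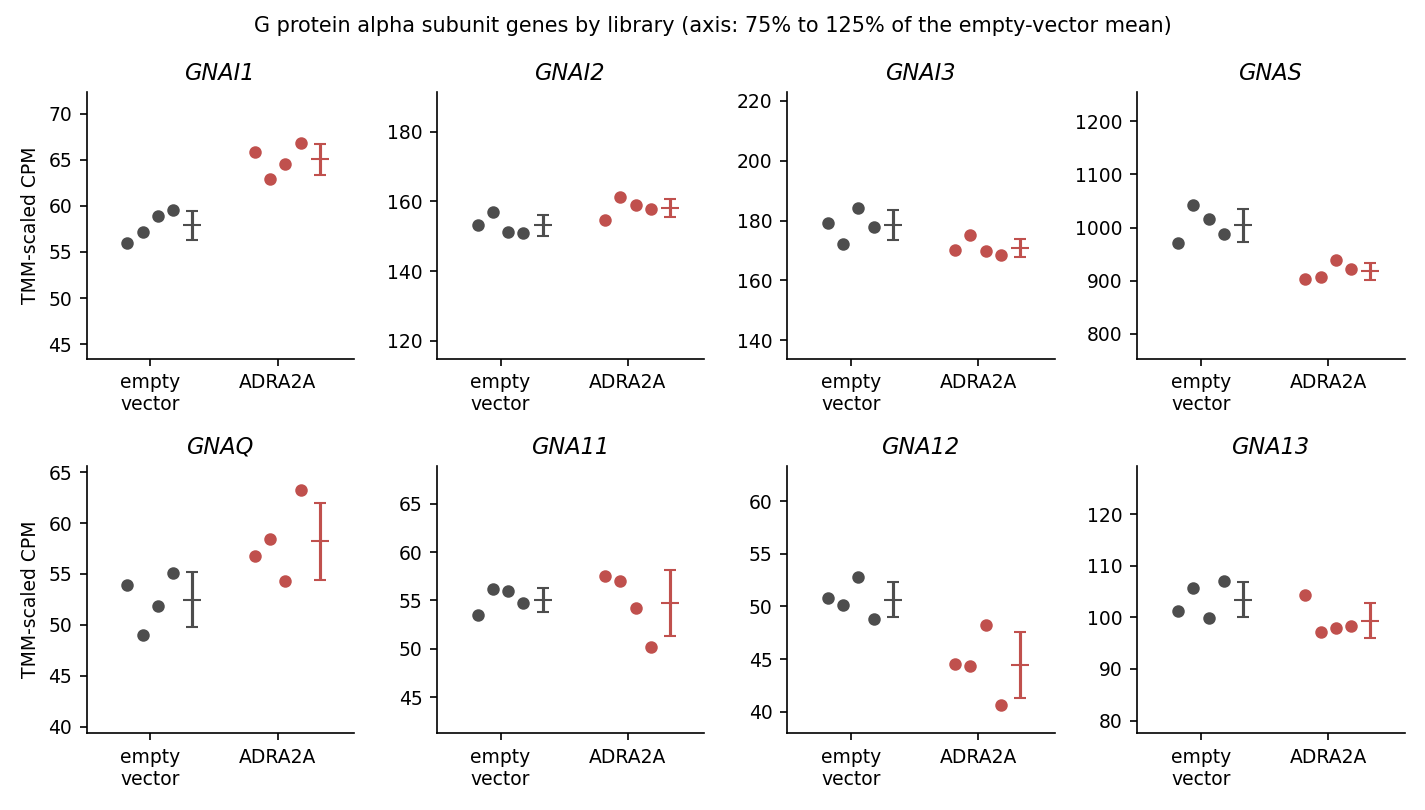
TMM-scaled CPM of the 8 tested alpha subunit genes in each library (points) with the group mean and SD (bars); each axis is centred on that gene's empty-vector mean and spans the same percentage of it. The groups are apart in GNAI1, GNAS and GNA12 and overlap in the other 5 genes.

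Among the Gi genes, GNAI1 rose and the other members were not called. GNAI1 (ENSG00000127955.17; chromosome 7, 79768028 to 80226181 on GRCh38, plus strand) encodes Gi1 alpha, which inhibits adenylyl cyclase. It had 55.9, 57.2, 58.8 and 59.5 CPM in empty-vector replicates 1 to 4 and 65.9, 63.0, 64.5 and 66.9 CPM in ADRA2A replicates 1 to 4. All 4 ADRA2A libraries lay above all 4 empty-vector libraries. The group means were 57.9 ± 1.61 and 65.0 ± 1.70 CPM (SD, n = 4 each), or on the log2 scale a change of 0.17 ± 0.04 (standard error; adjusted p = 0.00463 in edgeR), or 12.4% more transcript.

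GNAI2 (ENSG00000114353.17; chromosome 3, 50226292 to 50259362, plus strand), the Gi2 alpha gene and the most abundant Gi gene here, had 153, 157, 151 and 151 CPM in the empty-vector and 155, 161, 159 and 158 CPM in the ADRA2A libraries. Empty-vector replicate 2 lay inside the ADRA2A range. The log2 fold change was 0.05 ± 0.04 (standard error; adjusted p = 0.302 in edgeR), and its 95% interval ran from -1.81% to 8.70%. GNAI3 (ENSG00000065135.11; chromosome 1, 109548615 to 109600195, plus strand), which encodes Gi3 alpha, had 179, 172, 184 and 178 CPM without the transgene and 170, 175, 170 and 168 CPM with it. Here ADRA2A replicate 2 stood above empty-vector replicate 2, and the log2 fold change was -0.06 ± 0.04 (standard error; adjusted p = 0.172 in edgeR). For GNAI3 the interval ran from -9.01% to 0.859%.

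GNAS fell. GNAS (ENSG00000087460.24; chromosome 20, 58839718 to 58911192, plus strand) encodes Gs alpha, the stimulator of adenylyl cyclase that opposes Gi. Its libraries held 971, 1042, 1015 and 988 CPM with the empty vector and 903, 906, 940 and 921 CPM with ADRA2A. The highest ADRA2A library lay below the lowest empty-vector library. The means of 1004 ± 31.1 and 918 ± 16.7 CPM (SD, n = 4 each) gave a log2 fold change of -0.13 ± 0.03 (standard error; adjusted p = 0.00167 in edgeR), or -8.60%. Antisense transcripts overlap GNAS exons, but GNAS-AS1 and the other annotated one held 35 and 83 counts over the 8 libraries against 122261 for GNAS.

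The Gq/11 genes, whose products activate phospholipase C beta and with it calcium release, gave 1 call. GNAQ (ENSG00000156052.10; chromosome 9, 77716097 to 78031811, minus strand) had 53.9, 49.0, 51.8 and 55.1 CPM in the empty-vector and 56.7, 58.5, 54.3 and 63.2 CPM in the ADRA2A libraries. ADRA2A replicate 4 was the highest, and ADRA2A replicate 3 fell below empty-vector replicate 4, so the groups overlapped. GNAQ rose on the log2 scale by 0.15 ± 0.05 (standard error; adjusted p = 0.0337 in edgeR), but this call was the least stable of the 4. The adjusted p was 0.130 without ADRA2A replicate 4, 0.108 without empty-vector replicate 2, 0.0685 without empty-vector replicate 3, 0.0603 without ADRA2A replicate 2 and 0.0562 with upper quartile factors.

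GNA11 (ENSG00000088256.9; chromosome 19, 3094362 to 3123999, plus strand), the close relative of GNAQ, had 53.5, 56.2, 55.9 and 54.7 CPM in the empty-vector and 57.5, 57.0, 54.2 and 50.2 CPM in the ADRA2A libraries. The ADRA2A libraries reached both above and below those of the empty vector. The log2 fold change was -0.01 ± 0.05 (standard error; adjusted p = 0.896 in edgeR), with an interval from -7.73% to 6.90%, and it was 0.03 without ADRA2A replicate 4. Whether GNAQ and GNA11 differed from each other in response was not tested.

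Of the G12/13 genes, GNA12 fell. GNA12 (ENSG00000146535.14; chromosome 7, 2728105 to 2844308, minus strand) had 50.8, 50.1, 52.7 and 48.8 CPM in the empty-vector libraries and 44.6, 44.3, 48.3 and 40.7 CPM in the ADRA2A libraries. The groups were apart, with ADRA2A replicate 3 close under empty-vector replicate 4 and ADRA2A replicate 4 the lowest of all. GNA12 went from 50.6 ± 1.63 to 44.5 ± 3.11 CPM (SD, n = 4 each), or on the log2 scale a change of -0.19 ± 0.05 (standard error; adjusted p = 0.00946 in edgeR), or -12.2%.

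GNA13 (ENSG00000120063.10; chromosome 17, 65009289 to 65056740, minus strand) had 101, 106, 99.9 and 107 CPM in the empty-vector and 104, 97.1, 97.9 and 98.3 CPM in the ADRA2A libraries. ADRA2A replicate 1 lay among the empty-vector libraries, while the other 3 ADRA2A libraries lay below all of them. The log2 fold change was -0.06 ± 0.04 (standard error; adjusted p = 0.286 in edgeR), with an interval from -9.49% to 2.05%.

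**Figure D3:**
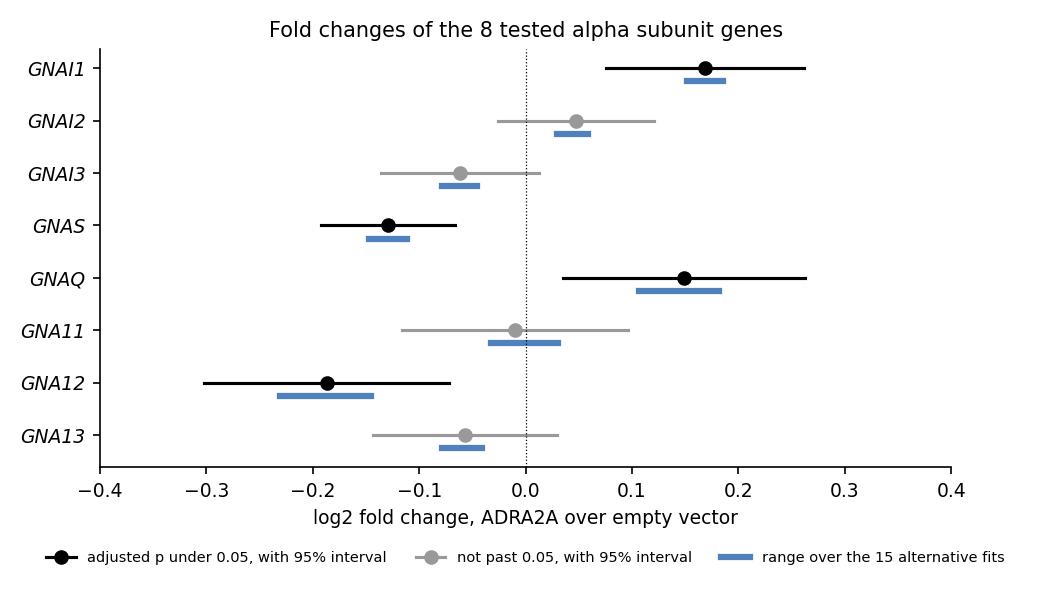
Log2 fold change of the 8 tested alpha subunit genes, ADRA2A over empty vector, with its 95% interval (black where the adjusted p was under 0.05, grey elsewhere) and the range over the 15 alternative fits (blue). GNAI1, GNAS and GNA12 kept an adjusted p under 0.05 in all 15 alternatives and GNAQ in 10.

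In 3 of the 8 genes, GNAI1, GNAS and GNA12, the groups shared no range of values, as in 39.2% of all genes tested. Replicates were close in the 8 tested genes. The coefficient of variation within a group lay between 1.68% for GNAI2 and 6.98% for GNA12, both in the ADRA2A libraries. The 3 alpha subunit genes with the widest spread among ADRA2A libraries were GNA12, GNAQ with 6.47% and GNA11 with 6.16%. ADRA2A replicate 4 was the lowest library of its group in GNA12 and GNA11 and the highest in GNAQ. In GNA12, ADRA2A replicate 3 (48.3 CPM) lay about as far above the group mean (44.5 CPM) as replicate 4 (40.7 CPM) lay below it. ADRA2A replicate 4 also held the most ADRA2A, 172 counts, and a link between these values was not tested. Without that library GNAI1, GNAS and GNA12 stayed past the threshold and GNAQ did not.

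The subfamily shares of the summed level differed between the groups by small amounts. Of the summed level per kb of the 10 genes, GNAS took 79.0% ± 0.437 in the empty-vector and 77.4% ± 0.408 in the ADRA2A libraries (SD, n = 4 each). The Gi/o genes took 13.8% ± 0.280 and 15.1% ± 0.260, the Gq/11 genes 3.03% ± 0.0940 and 3.37% ± 0.138, and the G12/13 genes 4.11% ± 0.0832 and 4.08% ± 0.143. The share of the Gi/o genes lay between 13.5% and 14.2% in the empty-vector libraries and between 14.9% and 15.5% in the ADRA2A libraries, with no overlap. The shares of GNAS (78.6% to 79.5% and 77.0% to 77.8%) and of the Gq/11 genes (2.91% to 3.12% and 3.20% to 3.48%) did not overlap either, and those of the G12/13 genes did. Over the union of exons the Gi/o share was 33.3% and 34.7% and that of GNAS 35.1% and 33.3%, so the direction held while the size of each share did not. The shares are parts of a single whole, so a lower GNAS level raises the other shares by arithmetic. The mean GNAI3 share, for example, was 2.88% with the empty vector and 2.96% with ADRA2A. Its level was lower with ADRA2A (19.7 and 18.9 CPM per kb). The shares are therefore not further differences independent of GNAS.

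GNAS stood at 5.55, 5.88, 5.81 and 5.69 times the summed level per kb of GNAI1, GNAI2 and GNAI3 in empty-vector replicates 1 to 4 and at 5.12, 4.98, 5.24 and 5.16 times in ADRA2A replicates 1 to 4. The ratio was lower in every ADRA2A library than in any empty-vector library. Its size rests on the canonical lengths. Over the union of exons GNAS took 35.1% and the Gi/o genes 33.3% of the summed alpha subunit level with the empty vector. With ADRA2A these shares were 33.3% and 34.7%. The GNAI sum alone was 94.5 ± 0.799 and 96.6 ± 1.31 CPM per kb (SD, n = 4 each) and overlapped between the groups. Within the GNAI sum, GNAI1 took 6.08% ± 0.205 and 6.68% ± 0.250. GNAI2 took 73.0% ± 0.827 and 73.8% ± 0.285, and GNAI3 20.9% ± 0.701 and 19.6% ± 0.225. The sizes of these shares also rest on the canonical lengths. Over the union of exons GNAI2 came to 21.0 and GNAI3 to 19.3 CPM per kb. The transgene itself came to 2.37 ± 0.336 CPM per kb of the annotated ADRA2A transcript in the ADRA2A libraries. This was below each of the 8 expressed alpha subunit genes over their canonical lengths. The length of the transgene's own transcript was not given in the sources used here, and a shorter one would give a higher level. The place of the transgene below these genes therefore rests on the annotated length, and for GNAI1 also on the canonical length of GNAI1. GNAI1 came to 2.54 CPM per kb over the union of exons (mean of the 8 libraries). That value lies within the spread of the transgene, 2.37 ± 0.336, so the order of the transgene and GNAI1 is not settled.

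The neighbours of each gene on its chromosome were examined as well. Among the 10 tested genes on each side of GNAS, 13 of 20 had a negative log2 fold change and 11 of these passed the threshold, while 5 of the other 7 passed as higher. Of all genes tested 21.1% passed as lower and 21.6% as higher. Both tested genes next to GNAS upstream were higher, NPEPL1 at 0.38 and STX16 at 0.28 on the log2 scale. The median around GNAS was -0.14, close to the -0.13 of GNAS itself. Around GNAI3, 17 of 20 genes had a positive log2 fold change and the median was 0.25, while GNAI3 itself stood at -0.06. The medians around GNAI1 (0.02), GNAQ (0.00) and GNA12 (-0.05) were all nearer to 0 than the fold change of the gene between them, and with 20 genes on each side the medians around GNAI1, GNAQ and GNA12 were 0.03, -0.01 and -0.06. What part a regional shift had in the GNAS difference was not tested.

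**Figure D4:**
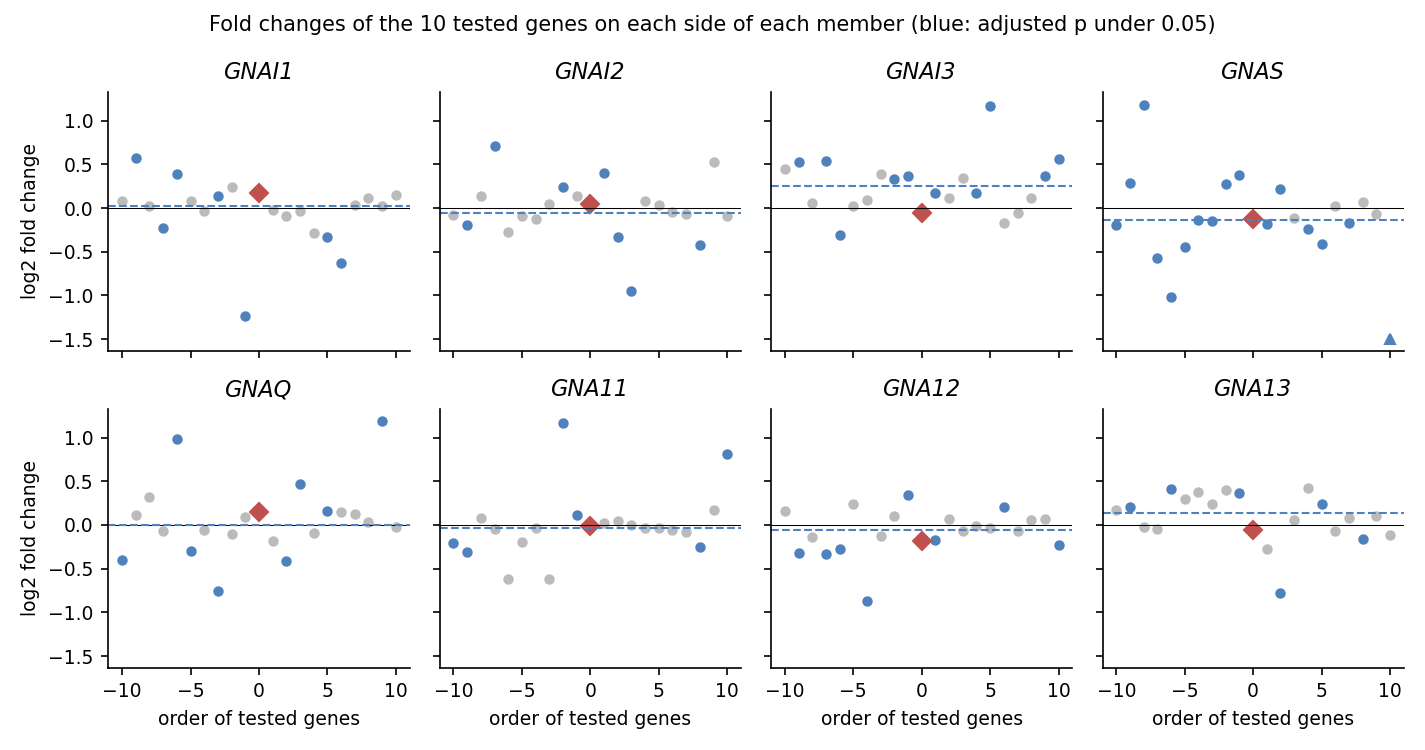
Log2 fold change of the 10 tested genes on each side of each alpha subunit gene, in chromosome order (circles, blue where the adjusted p was under 0.05; a triangle marks 1 gene beyond the axis at the edge of the GNAS panel). The diamond is the alpha subunit gene and the dashed line the median of its 20 neighbours, -0.14 around GNAS and 0.25 around GNAI3.

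Several alpha subunit genes sit near a relative on the chromosome. GNAT1, GNAT2 and GNAT3 are the transducin and gustducin alpha genes of light and taste sensing. They lie 28595 bases from GNAI2, 2895 bases from GNAI3 and 232453 bases from GNAI1, in that order. GNAT1 and GNAT3 had 0 counts in all 8 libraries and GNAT2 between 0 and 3. GNA14 lies 67774 bases from GNAQ and GNA15 lies 12033 bases from GNA11, and both encode further Gq-class subunits. GNA15 had 23.4 ± 1.24 and 23.7 ± 1.52 CPM (SD, n = 4 each; log2 fold change 0.02, edgeR adjusted p = 0.820), and GNA14 had 2.57 ± 0.367 and 2.75 ± 0.181 CPM (log2 fold change 0.10, edgeR adjusted p = 0.726). GNAL, the olfactory Gs-class gene, held between 3 and 15 counts per library and had a log2 fold change of -0.90 ± 0.43 (standard error; adjusted p = 0.100 in edgeR), and without ADRA2A replicate 1 its log2 fold change was -1.35 (adjusted p = 0.0280). With each library left out in turn it ran from -1.35 to -0.68. Of these 6 other alpha genes 3 were tested and 0 passed the threshold with edgeR, with DESeq2 or with limma voom, and 1, GNAL, had an unadjusted p under 0.05.

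Lists of other genes of the pathway were counted in the same fit, and the genes named from each are those with its 3 smallest p-values, so they were chosen by their values and do not stand for their list. GNB1, NMT1, RIC8A and ADCY1 were added to these, also with their values seen. As for the alpha subunits, the share of all genes tested that passed was 42.7%, with 21.6% higher and 21.1% lower. Of 5 beta subunit genes 4 were tested (median log2 fold change -0.09) and GNB4 alone fell. It had between 38.1 and 43.6 CPM in the empty-vector libraries and between 22.8 and 30.0 CPM in the ADRA2A libraries, a log2 fold change of -0.69 ± 0.07 (standard error; adjusted p = 2.15e-07 in edgeR). The main beta subunit genes GNB1 and GNB2 had log2 fold changes of -0.01 and -0.02 and did not pass. GNB5, the beta subunit that pairs with RGS proteins, had -0.16 (adjusted p = 0.0756 in edgeR), and it passed without empty-vector replicate 1 (adjusted p = 0.0295) and with upper quartile factors (adjusted p = 0.0488).

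Of 12 gamma subunit genes 6 were tested, with 2 higher and 1 lower and a median of 0.23, and 3 of 6 is near the 42.7% of all genes. GNG2 fell from 18.3 ± 1.14 to 10.7 ± 1.06 CPM (SD, n = 4 each), or on the log2 scale a change of -0.77 (adjusted p = 8.40e-07 in edgeR). GNG11 rose from 25.3 ± 2.38 to 39.3 ± 2.03 CPM, a log2 fold change of 0.63 (adjusted p = 2.84e-07 in edgeR). GNG12 rose from 155 ± 7.94 to 197 ± 3.39 CPM, a log2 fold change of 0.34 (adjusted p = 7.07e-07 in edgeR). GNB4, GNG2, GNG11 and GNG12 each separated the groups, with no empty-vector value inside the ADRA2A range. They were named for their small p-values, and 39.2% of all genes tested did not overlap between the groups.

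Of 8 genes for the folding and lipid anchoring of G protein subunits, all were tested. Of these 4 fell while 0 rose (also 0 with DESeq2, limma voom or an unadjusted p under 0.05). The list's median was -0.12 on the log2 scale. The 4 of 8 that passed are near the 42.7% of all genes. NMT2, an N-myristoyltransferase of the kind that anchors Gi alpha, fell from 57.7 ± 4.07 to 34.5 ± 1.94 CPM (SD, n = 4 each; log2 fold change -0.74, edgeR adjusted p = 4.89e-09). Its relative NMT1, at 259 ± 7.39 and 254 ± 7.73 CPM, did not pass (log2 fold change -0.03). LYPLA1, an acyl thioesterase that removes palmitate from alpha subunits, fell by 0.28 on the log2 scale and ZDHHC3, a palmitoyltransferase, by 0.24 (adjusted p = 5.02e-06 and 0.000368 in edgeR). NMT2, LYPLA1 and ZDHHC3 are given as the 3 smallest p-values of the list, and the fourth gene that fell was RIC8A, the chaperone of Gi, Gq and G12/13 alpha subunits. RIC8A had a log2 fold change of -0.15 (adjusted p = 0.0237 in edgeR), and the adjusted p was 0.0911 without ADRA2A replicate 1, 0.0733 without ADRA2A replicate 4 and 0.0732 without empty-vector replicate 2.

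RGS proteins speed the GTP hydrolysis of alpha subunits, and GoLoco proteins hold Gi alpha in its GDP form. Of these 24 genes 15 were tested, with 3 higher, 4 lower and a median of -0.08, and the share that passed, 46.7%, is near that of all genes. RGS2, which acts mainly on Gq, had between 280 and 299 CPM with the empty vector and between 395 and 419 CPM with ADRA2A, and rose (log2 fold change 0.46, edgeR adjusted p = 1.07e-09). RGS4, which acts on Gi and Gq, fell from 12.8 ± 1.52 to 6.48 ± 1.51 CPM (log2 fold change -0.99, edgeR adjusted p = 6.53e-06). RGS20, which acts on Gz and Gi, fell from 5.30 ± 0.505 to 1.89 ± 0.610 CPM (log2 fold change -1.47, edgeR adjusted p = 9.06e-06). The 3, named for their small p-values, did not overlap between the groups, as in 39.2% of all genes tested.

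Of 9 adenylyl cyclase genes, a family that holds targets of Gs and of Gi, 7 were tested. They gave 4 higher, 1 lower and a median of 0.27, or 71.4% passed beside 42.7% of all genes. ADCY5, a cyclase that Gi inhibits, had between 3.20 and 5.43 CPM with the empty vector and between 13.9 and 16.8 CPM with ADRA2A, and rose by 1.90 on the log2 scale (adjusted p = 4.38e-10 in edgeR). ADCY4 rose on the log2 scale by 1.35 and ADCY6 by 0.27 (adjusted p = 0.000316 and 0.000293 in edgeR). ADCY5, ADCY4 and ADCY6 had the 3 smallest p-values of the list. The gene counted as lower was ADCY1, with between 6 and 21 counts per library. Its adjusted p of 0.0276 was over the threshold with DESeq2 (0.0552), with no filter (0.0590) and without any 1 of ADRA2A replicates 2 and 4 and empty-vector replicates 1, 2 and 4 (0.0512 to 0.0908).

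Of 7 Gq/11 effector genes 6 were tested, with 2 higher, 2 lower and a median of -0.12, or 66.7% passed beside 42.7% of all genes. PLCB3, a phospholipase C beta, fell by 0.23 on the log2 scale, and TRIO, another target of Gq, by 0.20 (adjusted p = 0.00237 and 0.00180 in edgeR). PLCB2 rose by 0.15 (adjusted p = 0.0222 in edgeR), a call lost without ADRA2A replicate 4 (adjusted p = 0.0683), empty-vector replicate 2 (0.0581) or empty-vector replicate 3 (0.0807). The 7 lists differed in size, and no list was compared with another by a test.

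**Figure D5:**
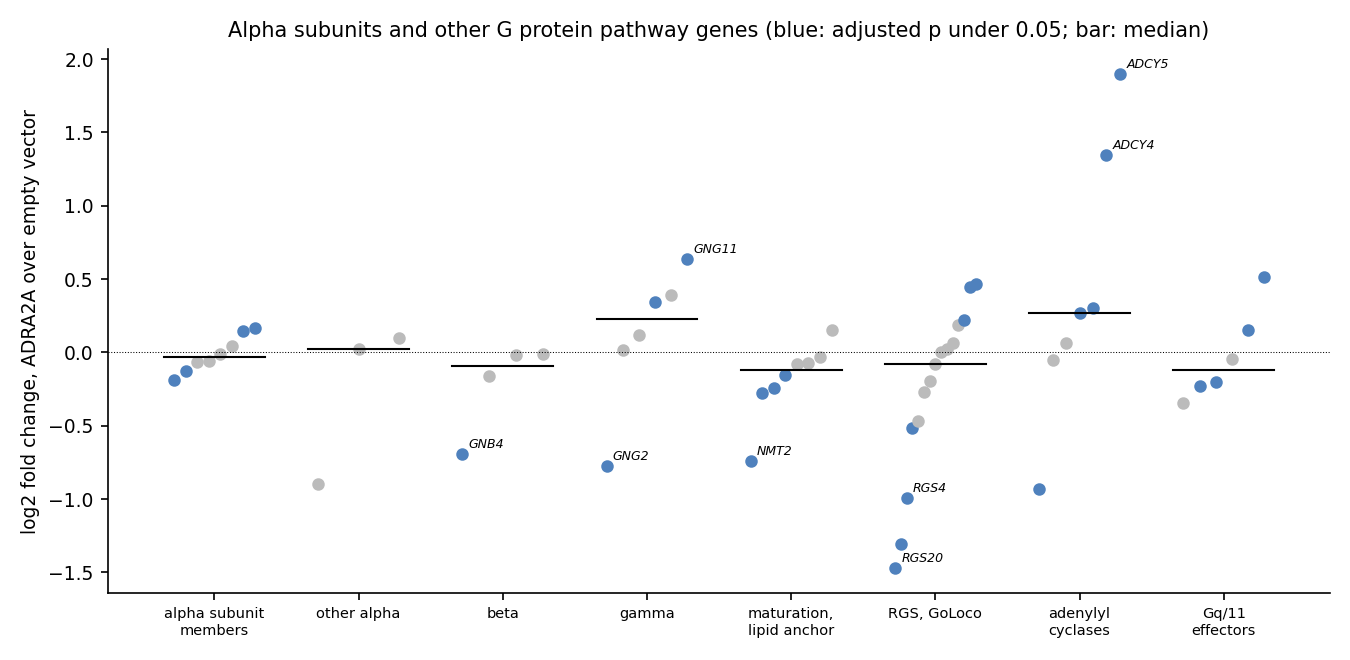
Log2 fold change of each tested gene, ADRA2A over empty vector, for the alpha subunit genes and 7 lists of other G protein pathway genes (blue where the adjusted p was under 0.05, black bar at the list's median). The alpha subunit genes lie between -0.19 and 0.17, and ADCY5 reaches 1.90 and RGS20 -1.47.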

How the data were processed

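The authors deposited 1 table of estimated counts (RSEM expected counts) per gene and library, not scaled between libraries, as the file header and the decimals in 4.61% to 4.90% of each library's entries show; the submitters' processing notes name cutadapt, STAR, RSEM, DESeq2 and the build hg38. The annotation release, the versions and the use of strand were not given in the sources used here. All 8 columns matched a sample title. Counts were rounded to whole numbers (1 of the members' 80 entries had decimals), filtered with filterByExpr, scaled by TMM and tested with edgeR 4.0.16 (glmQLFit, glmQLFTest; group as the single term), with Benjamini-Hochberg adjustment over the 14785 genes tested and a threshold of 0.05. Intervals are 95% intervals on the fit's degrees of freedom. Positions and lengths come from GENCODE release 44, which matched 99.4% of the genes. Simulated data had 14785 genes, of which only a small part was changed. There the fit recovered 76.0% of genes changed by a log2 fold change of 0.5 in size and 95.0% of those changed by 1. Of its calls 7.57% were false. In the real data 42.7% of genes were called, and the members' changes (-0.19 to 0.17) were smaller than those simulated. These rates therefore do not carry over to the members.

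The members, lists and rules were chosen with earlier results of these data known. Named were ADRA2A, the 10 members, the 3 genes of smallest p in each list and tested alpha genes beside a member. Alternatives were DESeq2 1.42.0, RLE and upper quartile factors, limma 3.58.1 voom, no filter, a minimum mean count of 50, a replicate block, and each library left out. One of the lists is not reported here.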

Additional observations from a re-analysis of the deposited data

Results flagged for a closer look

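GNA13 in ADRA2A replicate 1 stood apart from its group, at 104 CPM against 97.1 to 98.3 CPM in the other 3 ADRA2A libraries. The gap was 0.831 of the group's range, just above Dixon's 95% critical value for 4 values. It was the only such value in 16 groups of 4, and chance gives about 1 in 20.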

How the results depend on the processing

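GNAI1, GNAS and GNA12 kept their direction and an adjusted p under 0.05 in all 15 alternatives, with log2 fold changes of 0.15 to 0.19, -0.15 to -0.11 and -0.23 to -0.15. GNAQ lost its call, at 0.13, with upper quartile factors, which left 1 alpha subunit gene higher, and lay between 0.11 and 0.18 with a library left out. With each library left out in turn, the alpha subunit genes called higher numbered 1 to 2, and the GNA11 log2 fold change ran from -0.032 to 0.030, positive without ADRA2A replicate 4. In the same fits GNA15 ran from -0.018 (without ADRA2A replicate 3) to 0.060, with -0.00415 without empty-vector replicate 1, and GNB2 from -0.048 to 0.00429 (without ADRA2A replicate 4). They also gave 0 to 1 other alpha genes, 1 to 2 beta genes, 0 to 1 maturation genes called higher, 0 to 1 adenylyl cyclases called lower and 1 to 2 Gq/11 effectors called higher. The beta genes called, all lower, were 2 with upper quartile factors. For the cyclases 0 were called lower with DESeq2, no filter or the mean-count filter, and 3 in all with the last, which tests fewer genes. Same-numbered libraries did not deviate together over the genes tested (correlations of -0.03 to 0.07). Such values do not settle whether they shared a culture day or preparation, which the labels do not state. With the replicate block 6400 genes and 4 of the 8 alpha subunit genes were called. Among all genes 5703 to 6550 were called. Over the union of exons, GNAI1 came to 2.54, GNAI2 to 21.0, GNAO1 to 0.016, GNAS to 43.2, GNA11 to 8.74 and GNA12 to 7.78 CPM per kb, and the shares were 34.2% (Gs), 34.0% (Gi/o), 13.2% (Gq/11) and 18.6% (G12/13). The medians around GNAI2 were 0.036 and 0.026 with 5 and 20 genes on each side, those with 5 around GNAQ -0.092 and around GNA13 0.27. Where no cause is named, the cause was not tested. Depth limits GNAO1, GNAZ and GNAL, with 15 or fewer counts per library.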
